A study of Mus musculus with 13 samples.

Results

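Plek2, Podxl, Plek and Cd34 are 4 of the 19938 genes measured in mouse bone marrow after blood loss. Plek2 (pleckstrin 2) and Podxl (podocalyxin) were chosen by their levels against control in an earlier analysis of these same arrays, so their values are a description and carry no test. Plek (pleckstrin) and Cd34 were added as their paralogs, for contrast, and were tested. Each gene had exactly 1 probe set annotated to it alone: 10401149 for Plek2, 10543791 for Podxl, 10384458 for Plek and 10352905 for Cd34, with 0 further probe sets that also name another gene.

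The 13 samples were femoral marrow RNA of male C57BL/6 mice, 6 weeks old and on standard chow, with 1 Affymetrix Mouse Gene 1.0 ST array per sample. Baseline mice gave 3 control samples. The other mice had lost 500 µL of blood by puncture behind the eye, and gave 1 sample at 4 h, 3 at 9 h and 2 each at 12, 15 and 48 h. The labels name no sham puncture of the controls and no hour of collection. They do not say whether replicates are separate animals, so a p-value speaks only of the scatter among these arrays, part of which may be technical.

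The title numbers run from 154393 to 154404 on 10 arrays, the larger run, and from 154933 to 154935 on 3 arrays, the smaller run (control replicate 3 with replicates 1 and 2 of 9 h). Over all probe sets, arrays of the larger run had a median of 7.01 on the log2 scale and those of the smaller run 7.79, and in the smaller run 62.3% of probe sets repeated a value on 2 or more arrays. Each change against control was therefore taken within a run, and levels are set side by side within a run only. The repeats lie inside the smaller run, so this step does not remove them. The gene Id1, for example, read 8.85 there in the control and in replicates 1 and 2 of 9 h. Plek2, Podxl, Plek and Cd34 each read a different value on every array of that run. The part of the repeats in the changes and calls, at 9 h or at the other times, was not tested. With 1 to 3 arrays a group, precision is limited by their number.

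Pleckstrins are adaptor proteins that bind phosphoinositides through pleckstrin homology domains and act on the actin cytoskeleton. Plek is the platelet and leukocyte form and a substrate of protein kinase C. Plek2 is the more widely expressed form. In mouse erythroblasts it acts downstream of JAK2 and STAT5, the signalling chain of the erythropoietin receptor, and takes part in survival and enucleation through the actin-severing protein cofilin. Podxl and Cd34 belong to 1 family of sialomucins, heavily glycosylated surface proteins. Podxl lines podocytes and endothelium, appears on erythroid cells under stress, and is tied to actin through ezrin and the NHERF adaptors. Cd34 marks blood stem and progenitor cells and endothelium.

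RefSeq promoter windows (GRCm38.p6) were matched for 3 of the 4 genes, and those of the pleckstrin paralogs are printed because the 2 genes had unlike time courses. The windows hold the 250 bases before the start that the promoter table takes for a gene, 5′ to 3′ on the gene's strand, with each CG dinucleotide in capitals. The Plek2 window lies at chr12:78906939-78907188 on the minus strand and the Plek window at chr11:17008719-17008968 on the minus strand. RefSeq's range of the Plek2 gene reaches beyond that start, so that 234 of the 250 bases of its window lie inside the gene's range, against 0 for Plek and 0 for Cd34.
Plek2: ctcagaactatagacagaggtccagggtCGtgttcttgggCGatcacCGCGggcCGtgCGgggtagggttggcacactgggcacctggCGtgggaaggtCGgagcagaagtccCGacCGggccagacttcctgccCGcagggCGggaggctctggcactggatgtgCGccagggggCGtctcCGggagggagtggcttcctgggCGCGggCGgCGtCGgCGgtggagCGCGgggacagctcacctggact
Plek: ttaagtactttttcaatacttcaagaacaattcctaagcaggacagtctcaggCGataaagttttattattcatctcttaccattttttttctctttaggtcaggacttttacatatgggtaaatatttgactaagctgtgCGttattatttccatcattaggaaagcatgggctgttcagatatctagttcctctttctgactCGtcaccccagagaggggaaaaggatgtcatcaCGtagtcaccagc

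The Plek2 window is 70.0% G and C with 23 CG dinucleotides, against 38.0% and 4 in the Plek window and 46.4% and 6 in the Cd34 window. The medians over 32851 such windows are 52.4% and 6. On both strands, the STAT motif TTCNNNGAA was found in 0 of the 3 windows and in 7.02% of all windows. The GATA words AGATAA and AGATAG, with TGATAA or TGATAG as other forms, were found in 1 of the 3, once in Cd34, and in 26.5% of all windows. CCNCNCCC, letters that KLF factors bind, was found at 2 places in Plek2, at 0 in Plek and Cd34, and in 45.9% of all windows. TTCCTG, an ETS core, was found at 2 places in Plek2, 2 in Cd34 and 0 in Plek, and in 25.7% of all windows. The KLF match nearest the Plek2 start overlaps an ETS match by 1 base. These matches are letters in a window, not binding sites.

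Plek2 was above every control of its run on each of the 10 phlebotomy arrays. In the larger run the deposited log2 level of Plek2 was 7.73 and 8.27 in the controls, 8.49 at 4 h, 9.26 at 9 h, 9.33 and 9.34 at 12 h, 9.61 and 9.50 at 15 h, and 9.29 and 9.23 at 48 h. In the smaller run it was 8.87 in the control and 9.94 and 9.91 at 9 h. The 2 controls of the larger run were the most unlike replicates of this gene, and the 4 h array lay close to the higher of them. From 9 h on, the arrays of the larger run and its controls did not overlap, nor did those of the smaller run. The share of all genes whose arrays lie apart from so few controls was not counted, here or for the genes below.

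The fitted change of Plek2 against control was log2 0.46 ± 0.17 (standard error) at 4 h, 1.16 ± 0.12 at 9 h, 1.30 ± 0.14 at 12 h, 1.52 ± 0.14 at 15 h and 1.22 ± 0.14 at 48 h. As folds these were 1.37, 2.23, 2.46, 2.86 and 2.34. The order of the levels was control, 4 h, 9 h, 48 h, 12 h and 15 h. The step from 4 h to 9 h, 0.70 ± 0.18, was the widest between neighbours in that order. Among the last 4 places neighbours differed by 0.07 ± 0.15 (48 h minus 9 h), by −0.08 ± 0.14 (48 h minus 12 h) and by 0.22 ± 0.14 (15 h minus 12 h), which is within 2 standard errors. Places further apart differed by over 2 standard errors for 15 h minus 9 h (0.36 ± 0.15) and 48 h minus 15 h (−0.29 ± 0.14). Without control replicate 1 the 4 h change was 0.24 and without control replicate 2 it was 0.63, so that value rests on which control is kept.

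Podxl was level with control at 4 h and higher at every later time. In the larger run its log2 level was 7.41 and 7.27 in the controls, 7.27 at 4 h, 8.17 at 9 h, 7.98 and 8.32 at 12 h, 8.87 and 8.62 at 15 h, and 8.36 and 8.35 at 48 h. In the smaller run it was 7.95 in the control and 8.45 and 8.56 at 9 h. The 9 arrays from 9 h on all lay above the controls of their run, and both 15 h arrays lay above every other array of the larger run.

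The fitted change of Podxl was −0.11 ± 0.15 at 4 h, 0.69 ± 0.11 at 9 h, 0.76 ± 0.12 at 12 h, 1.35 ± 0.12 at 15 h and 0.97 ± 0.12 at 48 h. As folds these were 0.924, 1.61, 1.70, 2.56 and 1.96. The order was 4 h, control, 9 h, 12 h, 48 h and 15 h. From 12 h to 15 h Podxl differed by 0.59 ± 0.13 and from 15 h to 48 h by −0.39 ± 0.13. The 9 h and 12 h values (0.07 ± 0.14) and the 12 h and 48 h values (0.21 ± 0.13) differed by less than 2 standard errors.

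**Figure D1:**
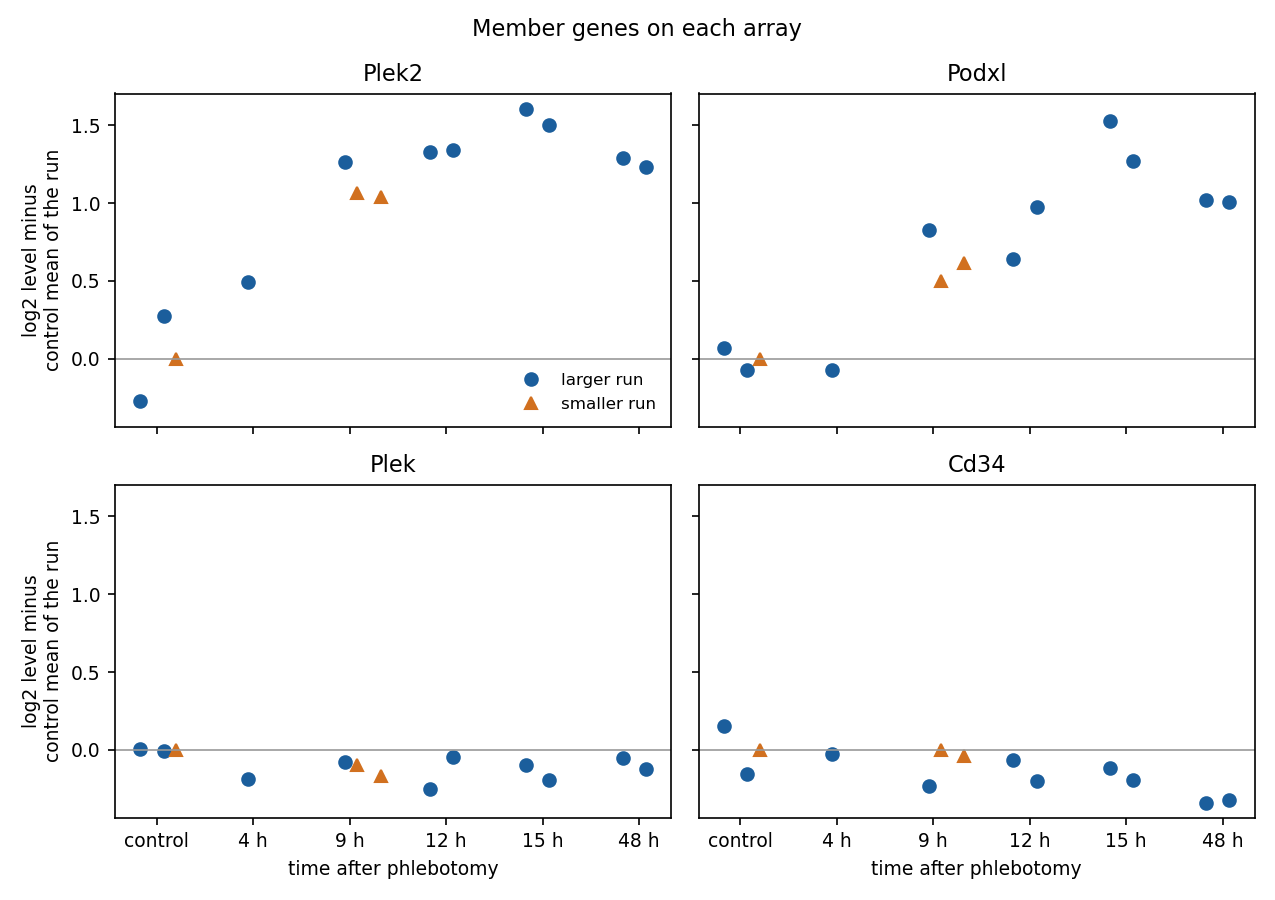
Log2 level of each gene minus the mean over the controls of its run (vertical axis, log2 units) by group (horizontal axis), 1 point per array, with circles for the larger and triangles for the smaller run. Plek2 and Podxl sit above their controls from 9 h on, with the 15 h arrays highest, while Plek and Cd34 stay close to theirs, with the 48 h arrays of Cd34 lowest.

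Both Plek2 and Podxl were higher at 9 h in each run taken alone. For Plek2 the 9 h change was 1.26 in the larger run (1 array against 2 controls) and 1.05 in the smaller (2 arrays against 1 control). For Podxl it was 0.82 and 0.56. The 2 genes differed in their controls: control replicate 2 was above control replicate 1 for Plek2 and below it for Podxl.

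Plek did not pass the test at any time. Its log2 level in the larger run was 11.65 and 11.63 in the controls, 11.46 at 4 h, 11.57 at 9 h, 11.39 and 11.60 at 12 h, 11.55 and 11.45 at 15 h, and 11.59 and 11.52 at 48 h. In the smaller run it was 12.54 in the control and 12.45 and 12.37 at 9 h. Every phlebotomy array was below the controls of its run, by little.

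Changes of Plek were tested in 1 limma fit to 19938 genes with Benjamini-Hochberg adjustment over all of them, at a threshold of 0.05. They were −0.19 ± 0.10 at 4 h, −0.10 ± 0.07 at 9 h, −0.16 ± 0.08 at 12 h, −0.15 ± 0.08 at 15 h and −0.10 ± 0.08 at 48 h. The limma adjusted p-values were 0.415, 0.846, 0.435, 0.471 and 0.641. The 95% intervals ran from −0.42 to 0.03 at 4 h, from −0.27 to 0.06 at 9 h, from −0.34 to 0.03 at 12 h, from −0.34 to 0.03 at 15 h and from −0.28 to 0.09 at 48 h.

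Cd34 had a log2 level in the larger run of 9.92 and 9.61 in the controls, 9.74 at 4 h, 9.54 at 9 h, 9.70 and 9.56 at 12 h, 9.65 and 9.57 at 15 h, and 9.43 and 9.44 at 48 h. In the smaller run it was 10.46 in the control and 10.46 and 10.42 at 9 h. The 48 h arrays were the lowest of the larger run, while the arrays of 4, 12 and 15 h overlapped the range between the controls or lay just under it.

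The fitted changes of Cd34 were 0.01 ± 0.13 at 4 h, −0.12 ± 0.09 at 9 h, −0.10 ± 0.10 at 12 h, −0.12 ± 0.10 at 15 h and −0.30 ± 0.10 at 48 h. None passed, with limma adjusted p-values of 0.989, 0.851, 0.705, 0.651 and 0.237. The 48 h value is 1.23-fold lower, has an unadjusted limma p of 0.0155 and a 95% interval from −0.52 to −0.07. Without control replicate 1 it was −0.16 and without control replicate 2 it was −0.38. Of the paralogs 0 of 2 were thus called at each time, and 1 of 2 had an unadjusted p under 0.05, at 48 h, where 14.0% of all genes had one. Over all genes, limma called 1.99% at 4 h, 0.0953% at 9 h, 0.105% at 12 h, 0.256% at 15 h and 0.376% at 48 h. Between times, limma called 0 of 10 pairs for Plek (lowest adjusted p of 0.657) and 0 of 10 for Cd34 (lowest adjusted p of 0.216). At an unadjusted p under 0.05 these were 0 pairs for Plek and 1 for Cd34, 48 h minus 4 h at −0.30 ± 0.13.

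The 9 h change of the paralogs was not called different between the runs by limma's test of that difference. Plek was −0.07 in the larger and −0.13 in the smaller run (adjusted p = 0.984), and Cd34 −0.23 and −0.02 (adjusted p = 0.926).

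Genes known to answer to erythropoietin were set beside them: Cish and Erfe were highest at 9 h, Pim1 at 15 h, and all 3 were lower at 48 h. The comparisons with control share the same control arrays, so values are given side by side. Cish, a feedback inhibitor of cytokine receptors that STAT5 induces, changed by 1.43 ± 0.22 at 4 h, 2.40 ± 0.16 at 9 h, 1.77 ± 0.17 at 12 h, 1.94 ± 0.17 at 15 h and 0.54 ± 0.17 at 48 h. It passed at each time but 48 h (limma adjusted p = 0.207 there). Erfe (erythroferrone, an erythroid hormone that lowers hepcidin) changed by 0.81 ± 0.10, 1.86 ± 0.08, 1.43 ± 0.08, 1.72 ± 0.08 and 0.49 ± 0.08 at the same 5 times, and passed at each. Its 48 h call (limma adjusted p = 0.0387) was lost in 12 of 23 alternatives, and its other calls and those of Cish in 0 to 2. Pim1, a survival kinase that STAT5 induces, passed at 9, 12 and 15 h (0.85 ± 0.10, 0.81 ± 0.11 and 0.88 ± 0.11) and stood at 0.09 ± 0.11 at 48 h. Tfrc, the transferrin receptor, did not pass at any time (−0.01 ± 0.15 at 4 h and 0.41 to 0.53 later).

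Between 15 h and 48 h Erfe fell by 1.23 ± 0.09 (limma adjusted p = 0.000128), Cish by 1.41 ± 0.18 (adjusted p = 0.00879) and Pim1 by 0.80 ± 0.12 (adjusted p = 0.0180). Tfrc did not fall, with a difference of 0.0046 ± 0.13 (limma adjusted p = 0.991). The call was lost in 1 alternative for Erfe, in 4 for Cish and in 8 for Pim1. In this comparison 0.547% of all genes were called and 0.0903% were called lower. The same difference, 48 h minus 15 h, was −0.29 ± 0.14 for Plek2 and −0.39 ± 0.13 for Podxl. The difference between these courses was not tested.

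**Figure D2:**
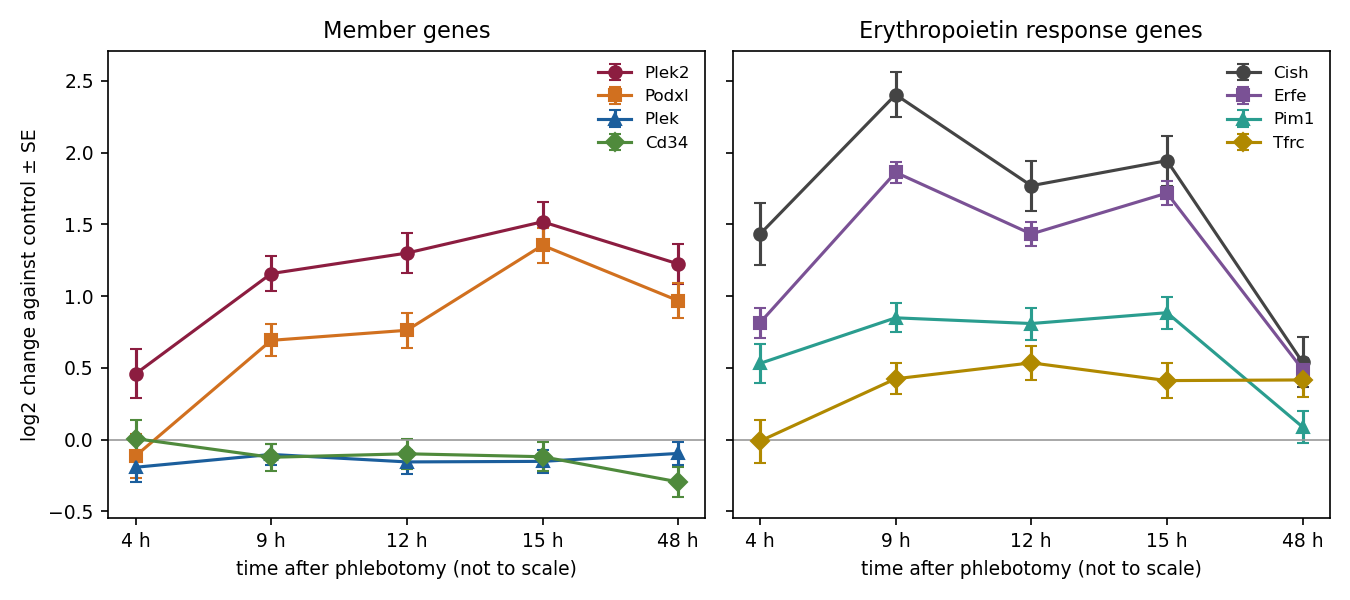
Log2 change against control from the limma fit (vertical axis) at each time (horizontal axis, not to scale), with bars for 1 standard error, for the 4 genes (left) and for Cish, Erfe, Pim1 and Tfrc (right). Plek2 and Podxl are at 1.22 and 0.97 at 48 h, where Cish, Erfe, Pim1 and Tfrc are at 0.54, 0.49, 0.09 and 0.42.

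Of 22 measured erythropoietin and STAT5 target genes, 4 rose at 4 h, where 1.74% of all genes were called higher. The 4 h array also had small intestine markers at 2.64 and skeletal muscle markers at 1.59 above the controls in mean log2 level, whose part in these calls was not tested. The 4 that rose were Cish, Erfe, Socs3 (0.59 ± 0.10), another cytokine receptor inhibitor, and Id1 (0.75 ± 0.15), a target of BMP signalling. At 9, 12 and 15 h 3 rose, each time Cish, Erfe and Pim1, where 0.0502%, 0.0853% and 0.211% of all genes were called higher. At 48 h 1 rose, Erfe, where 0.326% were called higher. None of the 22 fell. The list's median change was 0.11, 0.06, 0.10, 0.08 and 0.03 at the 5 times, beside −0.0035, 0.012, −0.0077, −0.0072 and 0.013 over all genes. The 4 h count was 7 without control replicate 1. The 48 h count was 0 without control replicate 1, 9 h replicate 1 or 2, either 15 h array or either 48 h array. The Id1 call was lost in 9 alternatives, that of Socs3 in 2, and that of Pim1 in 4 at 9 h, 13 at 12 h and 6 at 15 h.

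The partners of the 4 proteins did not pass limma's test. For 36 measured genes of actin regulation, cytokinesis and enucleation, 0 passed at any time, and 0 to 4 were higher and 2 to 6 lower at an unadjusted p under 0.05. At that level 3.64% to 9.31% of all genes were higher and 2.48% to 7.21% lower, depending on the time. Their median change lay between −0.08 and −0.02. Cofilin itself (Cfl1), the actin-severing partner of Plek2, was at −0.06 ± 0.06 at 9 h, −0.04 ± 0.07 at 12 h, 0.04 ± 0.07 at 15 h and 0.05 ± 0.07 at 48 h. For 13 measured sialomucins and podocalyxin partners 0 passed, with 0 to 2 higher and 1 to 4 lower at an unadjusted p under 0.05 and medians from −0.10 to −0.03. For 21 genes of protein kinase C and phosphoinositide signalling 0 passed, with 0 to 1 higher and 0 to 3 lower, and medians from −0.15 to 0.05. Without control replicate 1 limma called 4 actin genes at 4 h, 2 at 12 h and 2 at 15 h, and 6.82%, 2.08% and 2.53% of all genes at those times.

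Single partners were picked for their role after their values had been seen. Podxl2 (endoglycan), the other member of the Cd34 family, was at −0.06 ± 0.17 at 9 h, 0.06 ± 0.18 at 12 h, 0.23 ± 0.18 at 15 h and 0.03 ± 0.18 at 48 h. Ezr (ezrin), which links Podxl to actin, was at −0.16 ± 0.07, −0.28 ± 0.07, −0.31 ± 0.07 and 0.07 ± 0.07 at those times, with a lowest adjusted p of 0.139. Slc9a3r1 (NHERF1), the adaptor between Podxl and ezrin, was at 0.39 ± 0.09 at 4 h and 0.03 ± 0.07 at 9 h. Later it was at −0.22 ± 0.07 at 12 h, −0.12 ± 0.07 at 15 h and −0.21 ± 0.07 at 48 h, and it did not pass at any time. The 4 h value comes from the lone array with raised small intestine markers, whose part in it was not tested.

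Markers of erythroid precursors were the first list to set beside Plek2 and Podxl. Of 26 measured erythroid precursor markers 0 passed at any time by limma. Their median change was −0.25 at 4 h, −0.03 at 9 h, −0.07 at 12 h, −0.12 at 15 h and 0.28 at 48 h. At an unadjusted p under 0.05, 8 were lower at 4 h, where 7.21% of all genes were, and 14 higher at 48 h, where 9.31% of all genes were. For 25 genes of the red cell membrane skeleton 0 passed, with 0 to 7 higher and 0 to 7 lower at an unadjusted p under 0.05 and medians of −0.24, −0.02, −0.05, −0.08 and 0.25. These medians rest on single controls: at 48 h the skeleton genes stood at 0.046 without control replicate 1 and the erythroid markers at 0.15, and at 15 h at 0.0055 and 0.067 without control replicate 2. The carbonic anhydrases Car1 and Car2 and the heme enzyme Alas2, markers of this list, were at 0.04 ± 0.08, −0.01 ± 0.09 and −0.04 ± 0.07 at 9 h and at 0.17 ± 0.08, 0.19 ± 0.10 and 0.08 ± 0.08 at 48 h.

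By array, the mean log2 level of the 26 erythroid markers, taken from the control mean of each run, was −0.20 and 0.20 in control replicates 1 and 2, −0.26 at 4 h, −0.07, −0.04 and −0.02 at 9 h, −0.10 and 0.02 at 12 h, −0.06 and −0.05 at 15 h, and 0.34 and 0.21 at 48 h. The 2 controls of the larger run lie apart, and every array of 9, 12 and 15 h lies between them. Control replicate 2 is the higher one here, as for Plek2, while for Podxl it is the lower one. The part of this difference in the Plek2 values was not tested. Without control replicate 1 limma called 11 of the markers at 4 h, and 6.82% of all genes. Without control replicate 2 it called 5 at 48 h, and 0.446% of all genes. In bulk marrow a change in the number of cells of a type and a change in RNA per cell cannot be told apart.

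**Figure D3:**
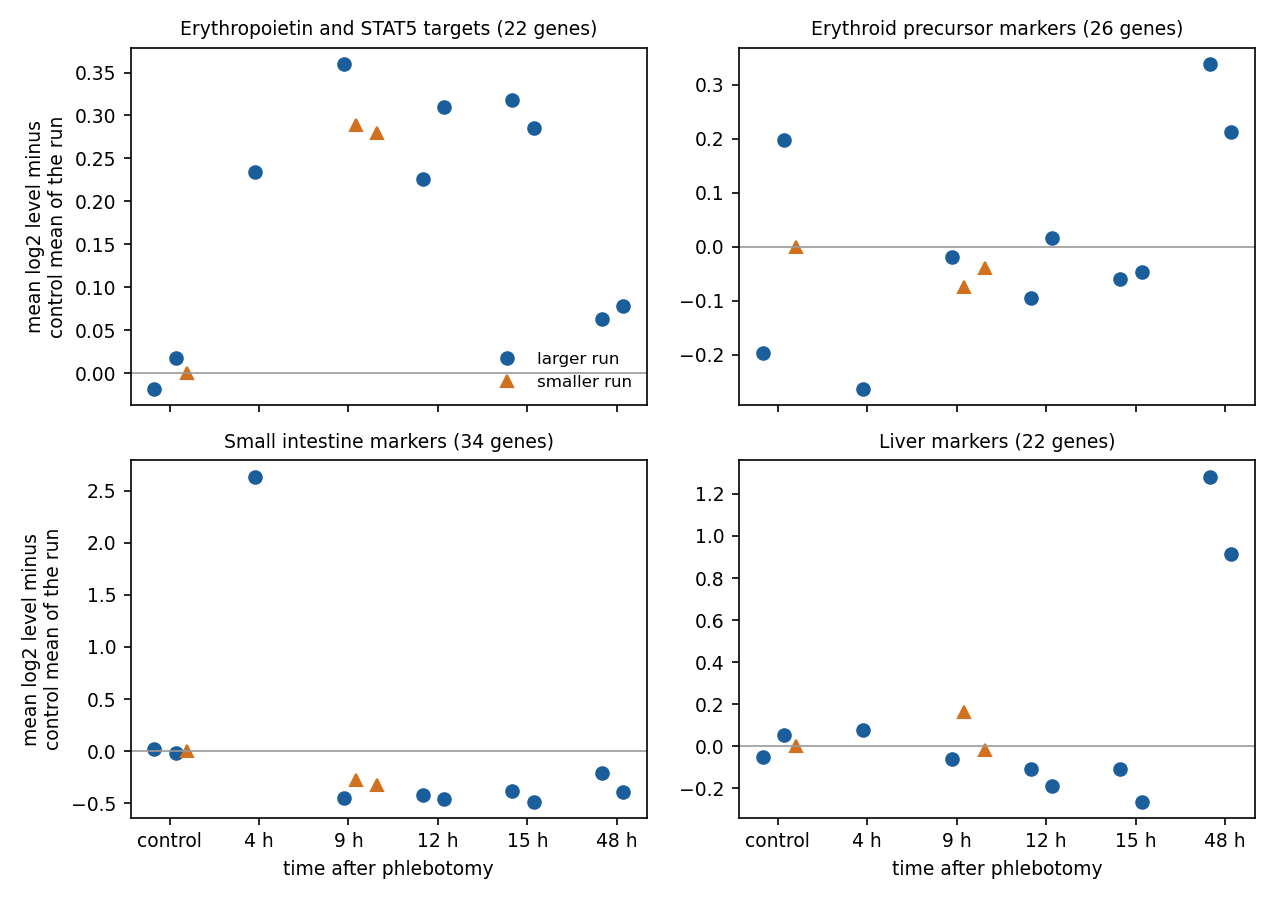
Mean log2 level of 4 gene lists minus the mean over the controls of each run (vertical axes, log2 units, with a scale of their own) by group (horizontal axis), 1 point per array, with circles for the larger and triangles for the smaller run. The mean of the 22 erythropoietin targets, of which 3 or 4 passed the test from 4 to 15 h, is 0.23 to 0.36 on the arrays of those times, and that of the 26 erythroid markers, of which 0 passed, is 0.34 and 0.21 at 48 h. The 34 small intestine markers stand out at 4 h and the 22 liver markers at 48 h.

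Markers of small intestine stood out at 4 h and those of liver at 48 h, while those of skeletal muscle varied by array. On the 4 h array 29 of 34 small intestine markers rose, with a median change of 2.78, and their mean level was 2.64 above the controls, against −0.48 to −0.21 on the 9 other phlebotomy arrays. At 4 h 1.74% of all genes were called higher. At 9, 12, 15 and 48 h 3, 3, 4 and 4 of the intestine markers fell, where 0.0451%, 0.0201%, 0.0451% and 0.0502% of all genes were called lower. At 48 h 2 of the intestine markers rose, where 0.326% of all genes were called higher. Lyz1, the lysozyme of Paneth cells, read 11.10 at 4 h against 8.62 and 8.56 in the controls of the run. The 20 skeletal muscle markers had a median change of 1.55 at 4 h, with 1 of them past the test. At 48 h 12 of 22 liver markers rose (median 0.85), beside the same 0.326% of all genes. Alb (albumin) read 11.69 and 11.44 at 48 h against 6.87 and 7.23 in the controls, and 9.68 on 9 h replicate 1 against 7.74 in its control. The part of these tissues in the Plek2 and Podxl values was not tested at any time. At 12 and 15 h the mean level of liver markers was −0.26 to −0.11 and that of intestine markers −0.48 to −0.38 from the controls. By array, that of skeletal muscle markers was −1.02, −0.40 and 0.64 at 9 h and −0.03 and −0.69 at 12 h. It was −0.43 and 0.25 at 15 h and 0.84 and −0.83 at 48 h.

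Other cell types of marrow held few or no called genes. By limma 0 genes passed at any time among 23 stem and progenitor markers, 22 endothelial markers, 21 neutrophil markers, 19 monocyte and macrophage markers and 17 T and NK cell markers. At an unadjusted limma p under 0.05, 3.64% to 9.31% of all genes were higher and 2.48% to 7.21% lower, depending on the time. The most markers at that level at any time were 2 higher and 6 lower for stem and progenitor markers and 2 and 5 for endothelial. They were 3 and 3 for neutrophil, 4 and 5 for monocyte and 4 and 4 for T and NK cell markers. They were 0 and 6 for megakaryocyte, 1 and 9 for B-lineage and 3 and 8 for osteoblast and stromal markers. The 6 stem and progenitor and 5 monocyte markers were lower at 48 h, where 4.68% of all genes were. So were the 3 neutrophil and 4 T and NK cell markers. The 5 endothelial markers were lower at 9 h, where 2.48% of all genes were. At 9 h the 3 neutrophil and 4 T and NK cell markers were higher, where 3.64% of all genes were. The part of such cells in the Cd34 value at 48 h was not tested. For megakaryocyte markers 6 were lower at 4 h and 6 at 15 h, where 7.21% and 5.31% of all genes were. The 9 B-lineage markers were lower at 12 h, where 6.08% of all genes were. The 8 osteoblast and stromal markers were lower at 9 h, where 2.48% of all genes were. Megakaryocyte markers had medians of −0.26 at 4 h, −0.26 at 12 h and −0.25 at 15 h, and B-lineage markers −0.25 at 12 h and −0.24 at 48 h. Over the 5 times 1 call each fell to 16 megakaryocyte, 19 B-lineage and 18 osteoblast and stromal markers. The same held for 14 markers of epidermis and 9 of kidney podocytes, the classic site of Podxl, and in both the call was a rise on the 4 h array. Osteoblast and stromal markers had medians of 0.37 at 4 h, −0.51 at 9 h, 0.17 at 12 h, 0.44 at 15 h and −0.35 at 48 h, and their call was a rise at 15 h. Their mean level was −0.04, 0.08 and −0.93 from the controls on 9 h replicates 1, 2 and 3, so that 1 array carries the 9 h value, and the controls of the larger run stood at 0.39 and −0.39. The part of these markers in the Plek2 and Podxl values at 15 h was not tested.

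Likeness between the genes was described by correlation across arrays. In the larger run the 2 controls and the 4 h array form 1 cluster and the 7 arrays of 9 to 48 h another, so no coefficient over both clusters is given for the pair. Over those 7 arrays Plek2 and Podxl had Pearson r = 0.81 and Spearman rho = 0.54, a description of arrays that share a run and, in 3 pairs, a time. The 15 h arrays were the highest of the 7 for both genes (Plek2 9.61 and 9.50, Podxl 8.87 and 8.62). This r may therefore rest on them, and no coefficient without them is given. Over the 7 arrays Plek2 had r = −0.16 and rho = −0.07 with Plek and r = 0.57 and rho = 0.68 with Cd34. Podxl had r = 0.24 and rho = 0.07 with Plek and r = 0.01 and rho = −0.07 with Cd34.

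**Figure D4:**
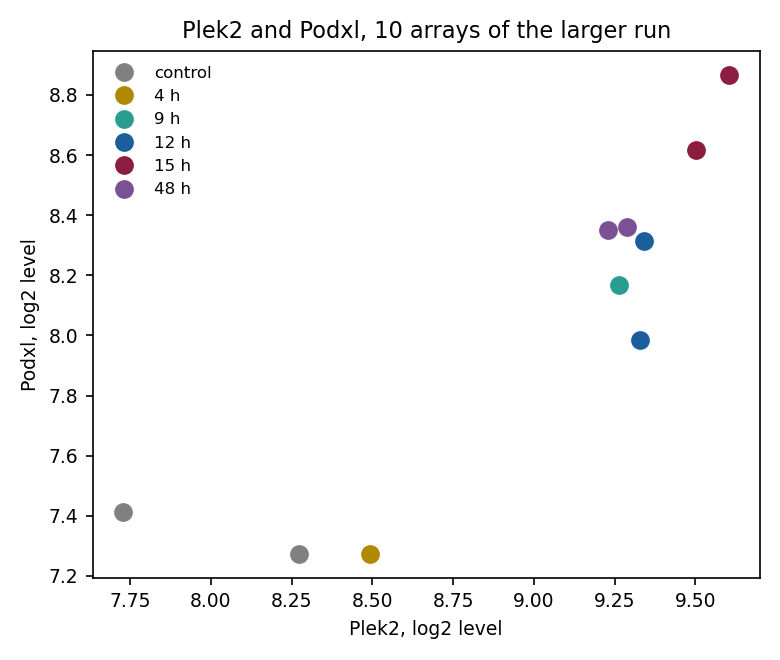
Deposited log2 level of Plek2 (horizontal axis) and Podxl (vertical axis) on the 10 arrays of the larger run, coloured by group. The controls and the 4 h array lie at the lower left, spread along Plek2 and not along Podxl, and the 15 h arrays lie highest on both axes.

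The genes most like each of the 4 were taken as those with the highest Pearson r over the 10 arrays of the larger run, among 9646 genes at or above the median level. Since the arrays form clusters for Plek2 and Podxl, this r mostly reflects the gap between them, and r over the 7 later arrays is given beside it. Those 7 still include the 15 h arrays, the highest for both genes. For Plek2 they were Alkbh8, a tRNA methyltransferase (r = 0.98, and 0.25 over the 7 later arrays), Mexis (0.97 and 0.23), Naa25, a subunit of an N-terminal acetyltransferase (0.96 and 0.13), Ccn5, a matricellular protein (0.96 and 0.44), Nup43, a nucleoporin (0.96 and 0.66), and Prps1, which makes phosphoribosyl pyrophosphate (0.95 and 0.70). Their changes were smaller than that of Plek2: at 15 h the widest was Mexis at 0.78 ± 0.18, against 1.52 ± 0.14 for Plek2.

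For Podxl they were Agfg1, an ARF GTPase-activating protein (0.97, and 0.89 over the 7 later arrays), Ints2, an Integrator subunit (0.96 and 0.79), Shmt2, the mitochondrial serine hydroxymethyltransferase (0.96 and 0.82), Sfxn1, a mitochondrial serine carrier (0.95 and 0.77), Ipo5, an importin (0.93 and 0.52), and Eif2b3, a subunit of a translation initiation factor (0.93 and 0.76). As the choice of the 6 favours without fixing it, each was close to control at 4 h (−0.11 to 0.06) and highest at 15 h or, for Ipo5, at 48 h. Shmt2 was at 0.51 ± 0.08 at 9 h, 0.68 ± 0.09 at 15 h and 0.46 ± 0.09 at 48 h.

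For Plek they were Rtn4r (0.88), Crybb1 (0.87), Fgf22 (0.85), Fem1a (0.84), Ccr9, a chemokine receptor of lymphocytes (0.84), and Clec1b, a receptor of platelets and megakaryocytes (0.83). For Cd34 they were Gdf11, a secreted TGF-beta family factor (0.94), Hmgn2, a nucleosome-binding protein (0.93), Adamts10, a matrix protease (0.92), Ccnd1, cyclin D1 (0.91), Kctd12 (0.91) and Ccdc50 (0.91). As the choice of the 6 favours, they share Cd34's low values at 48 h, at −0.41 to −0.21. No gene was most like more than 1 of the 4.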

How the data were processed

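The authors deposited log2 values from RMA, as the submitters' processing notes name it, for 35557 probe sets on 13 arrays. Its version, and which arrays were normalized together, are not given in the sources used here. GEO's platform annotation, updated by Entrez identifier, gave 1 gene symbol for 21789 probe sets. A gene with several was read from the probe set whose mean over the arrays was highest, which left 19938 genes.

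In R 4.3.3, limma 3.58.1 fitted the groups and a fixed run term to all arrays (6 residual and 4.62 prior degrees of freedom), with Benjamini-Hochberg adjustment over all genes. The lone 4 h array takes its variance from the other groups. The fit was tested on simulated data with independent noise drawn from its own variances. Those data had no shifts shared by the genes of an array and no repeated values, so the test cannot speak to either. The members, the 19 lists of textbook genes and the alternatives were chosen with earlier results of these data known. Genes named are the members, Erfe, Cish, Pim1 and Tfrc, list genes past the test (up to 5 a pathway list), up to 3 markers a cell type, and the 6 most like each member. Partners named outside this rule, and the alternatives for list counts and for 48 h against 15 h, were chosen after seeing the data. No paired analysis was possible because the labels give no replicate numbers. Plots used matplotlib 3.10.9 (Python 3.11.15).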

Additional observations from a re-analysis of the deposited data

Results flagged for a closer look

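Podxl differed in direction between times without a test of that difference. With each array taken from the control mean of its own run, the arrays of a time averaged −0.070 at 4 h and 0.65 at 9 h (3 arrays of both runs), 0.81 at 12 h, 1.40 at 15 h and 1.01 at 48 h. The 4 h value is 1 array, and that array read 7.27, as did control replicate 2.

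Erfe, Cish and Pim1 differed between 48 h and 15 h by limma's test of that difference, by −1.23, −1.41 and −0.80 on the log2 scale.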

How the results depend on the processing

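With no term for the run, Plek2 was at 0.20, 1.41, 1.04, 1.26 and 0.97 at 4, 9, 12, 15 and 48 h and Podxl at −0.27, 0.85, 0.60, 1.20 and 0.81, all with their direction kept. The same setting turned Plek at 9 h to 0.19, Cd34 at 9 h to 0.14, Cd34 at 4 h to −0.26 and Pim1 at 48 h to −0.33. Cd34 at 4 h also turned to −0.029 in the larger run alone, −0.029 when only the arrays compared were fitted and −0.070 with each array centred on its median. With quantile normalization again within each run, Tfrc turned to 0.010 at 4 h and to −0.011 for 48 h against 15 h. Leaving out each replicate, Plek2 ranged from 0.24 to 0.63 at 4 h, 1.03 to 1.26 at 9 h, 1.08 to 1.47 at 12 h, 1.30 to 1.69 at 15 h and 1.00 to 1.39 at 48 h. Podxl ranged from −0.20 to −0.07, 0.56 to 0.82, 0.60 to 0.93, 1.23 to 1.48 and 0.89 to 1.01 at those times. Cd34 ranged from −0.080 to 0.14 at 4 h, −0.19 to 0.036 at 12 h and −0.21 to 0.016 at 15 h, Pim1 from −0.033 to 0.19 at 48 h, and Tfrc from −0.18 to 0.15 at 4 h and −0.0013 to 0.011 for 48 h against 15 h. Plek and Cd34 had 0 calls by limma under any alternative run.

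The count of genes called, 397, 19, 21, 51 and 75 at the 5 times, was 78, 6, 5, 5 and 11 with no run term, 199, 3, 2, 9 and 13 when only the arrays compared were fitted, and 1852, 9, 4, 6 and 14 with array weights. With the run as a random block it was 32, 112, 81 and 143 from 9 to 48 h, and in the larger run alone 10, 22 and 31 from 12 to 48 h. With dim genes left out it was 239 at 4 h and 66 at 12 h, and with a variance trend and robust moderation 65 at 12 h and 134 at 48 h. Leaving out each replicate it ranged from 293 to 1359, 5 to 75, 6 to 414, 6 to 505 and 31 to 104. The cause was not tested. The 48 correlations recomputed for the most alike genes share most of their arrays with the first ones and so say little of stability. Those for Plek2 and Podxl also keep the gap between the clusters of arrays. Ranks reached 58 among the 6 genes named for Plek2 and 34 among those for Podxl.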
